A study of Mus musculus with 6 samples.

Results

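The genes described here encode the 3 TGF-beta ligands (Tgfb1, Tgfb2 and Tgfb3), the signalling receptor Tgfbr1 with the co-receptor Tgfbr3, and the latent TGF-beta binding proteins Ltbp1 to Ltbp4. They are 9 of the 19938 named genes on the array. Each gene has 1 row that the platform annotation gives to it alone, and rows were chosen by the highest mean signal over all arrays, so the contrast between the groups did not choose the row. The gene set itself was put together with earlier results of these data known, and its differences are given with that limit. Total RNA of E14 mouse embryonic stem cells was hybridised to Affymetrix whole-transcript arrays, 3 for control cells and 3 for Tdg knockdown cells, which answers how gene expression differs when Tdg is reduced. The Tdg product, thymine DNA glycosylase, cuts out mismatched thymine and some oxidised forms of methylated cytosine. All values below are log2 signals, so a difference of 1 is a doubling, and a gene was called where its limma p, adjusted over all named genes by the Benjamini-Hochberg method, was under 0.05. The protocol of both groups was lentiviral transduction (multiplicity of infection 10) with puromycin selection (2 ug/ml) from 48 h on, in 15% serum with LIF at 1000 units/ml on 0.1% gelatin. What the control vector carried, and how many knockdown constructs or cultures stand behind the arrays, is not given in the sources used here, so the p-values below reflect how far single arrays spread, and that spread may be technical only.

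TGF-beta is secreted in a latent form. Its propeptide stays wrapped around the mature dimer, and a latent TGF-beta binding protein, bound to the propeptide, anchors the complex in the extracellular matrix. Integrins with an alpha-v chain, thrombospondin-1 and proteases can release the ligand, which then binds the receptor pair TGFBR2 and TGFBR1 and leads to phosphorylation of SMAD2 and SMAD3. In embryonic stem cells the same SMAD branch also serves Nodal and activin.

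Tdg signal checked the labels. It was 11.12, 11.20 and 11.10 on the log2 scale in the controls and 8.24, 8.15 and 7.92 in the knockdown arrays, which leaves 12.2% of the control level (SE of the log2 difference 0.09, limma adjusted p 8.79e-05), in 4 rows that the annotation shares with the pseudogene Tdg-ps2. The extraction protocol mentions Kdm2b rather than Tdg, against the titles. The 12 embryonic stem cell markers lay between percentiles 84.1 and 99.9 of all named genes by mean signal. None of 10 fibroblast and none of 10 primitive endoderm markers passed the test. With the replicate block the endoderm marker Hnf4a passed as lower (-0.46, limma adjusted p 0.0673, blocked 0.0360). The stem cell marker Nr0b1 passed with the block as higher (0.38, limma adjusted p 0.0520, blocked 0.0306). The mean fibroblast marker signal was 6.82 to 6.99 over the control arrays and 6.82 to 7.10 over the knockdown arrays, and that of primitive endoderm markers was 7.54 to 7.64 and 7.51 to 7.65. No marker list is at 0 on this scale, and the part of other cells in the results was not tested. Knockdown replicate 3 stood apart on the first principal component, which held 58.6% of the variance, so values without that array are also given for Tgfb1, Tgfb2, Tgfb3, Tgfbr1, Tgfbr3, Ltbp2 and Ltbp3.

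Tgfb2 was the member that fell past the threshold, and its promoter is shown here for that reason, beside that of Tgfb1, a ligand of the same family that did not pass. Both are the 250 bases before the RefSeq start site (GRCm38.p6), 5′ to 3′ on the strand of the gene. The Tgfb2 window is chr1:186705990-186706239 on the minus strand and the Tgfb1 window is chr7:25686752-25687001 on the plus strand. Capitals mark every match to one of 5 motifs searched on both strands: TGANTCA for AP-1, CAGAC for SMAD, GCGTGGGCG for EGR, TATAAA for a TATA box and CACGTG for an E-box.
Tgfb2: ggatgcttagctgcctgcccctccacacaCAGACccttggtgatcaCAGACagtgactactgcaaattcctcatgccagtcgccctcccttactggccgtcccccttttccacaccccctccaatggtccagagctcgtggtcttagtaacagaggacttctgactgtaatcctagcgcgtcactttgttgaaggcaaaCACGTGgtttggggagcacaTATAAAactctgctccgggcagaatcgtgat
Tgfb1: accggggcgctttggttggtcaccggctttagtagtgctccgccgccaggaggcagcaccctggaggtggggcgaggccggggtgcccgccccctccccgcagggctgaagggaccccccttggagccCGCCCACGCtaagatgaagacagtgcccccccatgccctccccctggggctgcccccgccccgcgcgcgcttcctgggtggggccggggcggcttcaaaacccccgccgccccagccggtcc

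The Tgfb2 window held 2 CAGAC matches, starting 221 and 204 bases before the start site, a CACGTG match at 51 and a TATAAA match at 31 bases before it. The Tgfb1 window held 1 EGR match, 122 bases before the start site, written here as its reverse complement. TGANTCA was in neither. Of 32851 RefSeq windows of this length, CAGAC was in 42.2%, TATAAA in 12.4%, TGANTCA in 6.75%, CACGTG in 6.02% and GCGTGGGCG in 0.536%. TATAAA and CACGTG were added to the search after the Tgfb2 sequence had been read. A match describes the letters of the window and is no evidence of binding.

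Since TDG acts on modified cytosines, mostly in CpG dinucleotides, CpGs were counted in the same windows. Tgfb2 had 8 and Tgfb1 had 21, beside a median of 6 and quartiles of 2 and 16 over all windows. In the other members with an entry, Tgfbr1 had windows with 29 and 3 CpGs, Ltbp1 12 and 7, Ltbp2 16, Ltbp3 2, and Ltbp4 15, 29 and 28. Entries were matched for 7 of the 9 genes, leaving Tgfb3 and Tgfbr3. No measurement of methylation was used here.

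Among the ligands, Tgfb2 fell in knockdown cells. Tgfb2 encodes TGF-beta2, a ligand needed for heart, eye and skeletal development. Its log2 signal was 7.32, 7.36 and 7.38 in the control arrays and 6.79, 6.82 and 6.92 in the knockdown arrays. By mean signal Tgfb2 lay at percentile 37.0 of all named genes, and its height above background is not known. The groups were apart by more than the spread within either, since the highest knockdown array lay 0.40 below the lowest control. The difference was -0.51 (SE 0.06, 95% interval -0.66 to -0.36), so signal was 70.2% of the control level, with a limma adjusted p of 0.0291 over all named genes and 0.0186 with the replicate number as a block. In bulk RNA, fewer cells with the transcript and less of it per cell cannot be told apart.

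The Tgfb2 difference was of like size in each pair of same-numbered arrays, at -0.53, -0.54 and -0.46. Without knockdown replicate 3 it was -0.55 with an adjusted p of 0.0142. Leaving out any other single array kept the difference between -0.53 and -0.48 but raised the limma adjusted p to between 0.0921 and 0.208, so the call was lost. The loss was not particular to Tgfb2, since the same omissions cut the calls over all named genes from 158 to between 0 and 15. With all 35557 rows tested the adjusted p was 0.0981.

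**Figure D1:**
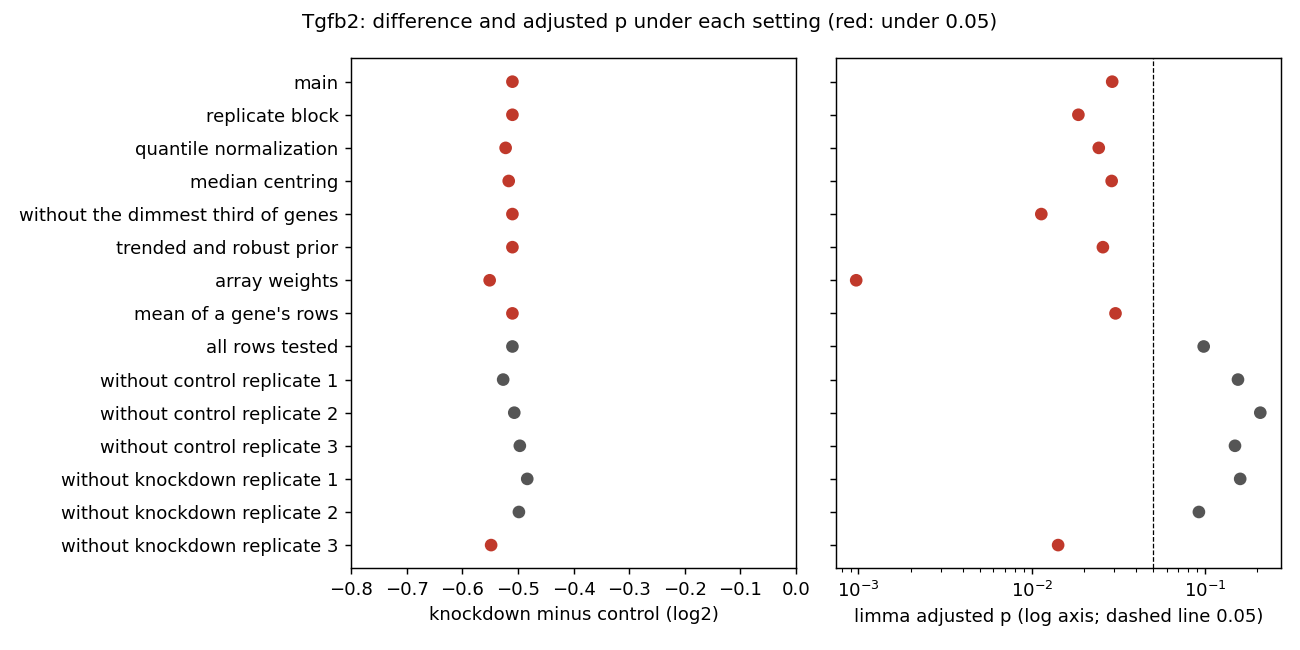
Tgfb2 under the main setting and each alternative, with the log2 difference between knockdown and control on the left and the limma adjusted p on a log axis on the right. Every difference lies between -0.55 and -0.48, while the adjusted p crosses the dashed line at 0.05 with all rows tested and without any single array but knockdown replicate 3.

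Tgfb1, the ligand with broad roles in immune and matrix regulation, had 8.76, 8.88 and 8.85 in the controls and 8.75, 8.82 and 8.71 in the knockdown arrays. These groups overlapped, and the difference of -0.07 (95% interval -0.23 to 0.09) did not pass (limma adjusted p 0.749). Without knockdown replicate 3 it was -0.045, as it was without control replicate 2, and without control replicate 1 it was -0.105. Its interval reaches no further down than -0.23, while that of Tgfb2 reaches no higher than -0.36.

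Tgfb3, a ligand known for its part in palate fusion, had 6.30, 6.31 and 6.52 in the controls and 5.97, 6.13 and 6.43 in the knockdown arrays. Both arrays numbered 3 were the highest of their group, and the groups overlapped because of knockdown replicate 3. The difference was -0.20 (95% interval -0.50 to 0.10, limma adjusted p 0.611). It was -0.33 without knockdown replicate 3, -0.13 without control replicate 3 and -0.097 without knockdown replicate 1, with limma adjusted p of 0.159, 0.734 and 0.789.

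The ligands were also set against each other within each array, a comparison chosen after the values were seen. Tgfb2 minus Tgfb1 was -1.44, -1.52 and -1.47 in the controls and -1.96, -2.00 and -1.79 in the knockdown arrays, a shift of -0.44. Tgfb2 minus Tgfb3 was 1.02, 1.05 and 0.86 in the controls and 0.82, 0.69 and 0.49 in the knockdown arrays, a shift of -0.31. In both the groups were apart, though narrowly for Tgfb2 minus Tgfb3 (lowest control 0.86, highest knockdown 0.82). The exact two-sided permutation p, not adjusted over the 2 comparisons, was 0.1 in both, the smallest that 3 arrays against 3 can give. Both shifts contain the Tgfb2 difference, so they are no separate support for it. Only the shifts have a meaning here, since signals of different probe sets share no scale.

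Neither receptor gene passed. Tgfbr1, which encodes the kinase that phosphorylates SMAD2 and SMAD3, had 9.65, 9.64 and 9.58 in the controls and 9.58, 9.60 and 9.25 in the knockdown arrays. Its difference of -0.15 (95% interval -0.39 to 0.09, limma adjusted p 0.654) came mostly from knockdown replicate 3, and it was -0.033 without that array. Tgfbr3, or betaglycan, a co-receptor that presents TGF-beta2 to the signalling receptors, had 7.37, 7.39 and 7.48 in the controls and 7.24, 7.35 and 7.43 in the knockdown arrays. The groups overlapped and differed by -0.07 (95% interval -0.25 to 0.10, adjusted p 0.765). Leaving out single arrays moved this from -0.023 (without knockdown replicate 1) to -0.118 (without knockdown replicate 3), and it was -0.040 without control replicate 3.

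Of the latent TGF-beta binding proteins, Ltbp1 came closest to the threshold. Ltbp1 encodes a protein that binds the propeptide of the ligands and fixes the latent complex in the matrix. It had 8.53, 8.45 and 8.40 in the controls and 8.26, 8.29 and 8.35 in the knockdown arrays. The groups did not overlap, but the gap between them was 0.05, and the difference of -0.16 (95% interval -0.31 to -0.01) did not pass (limma adjusted p 0.377, or 0.216 with the replicate block). The 95% intervals given here are per gene and not adjusted. The unadjusted limma p was under 0.05 for Ltbp1, as it was for 12.5% of all named genes. By number the pairs differed by -0.27, -0.16 and -0.05.

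Ltbp2, whose product binds fibrillin but is not known to carry latent TGF-beta, had 7.53, 7.49 and 7.41 in the controls and 7.50, 7.29 and 7.77 in the knockdown arrays. Its knockdown arrays spanned the control values, with knockdown replicate 3 the highest of all arrays. The difference was 0.04 (95% interval -0.24 to 0.33, limma adjusted p 0.918), and -0.082 without knockdown replicate 3.

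Ltbp3, a carrier of latent TGF-beta with a known part in bone and tooth formation, had 8.20, 8.41 and 8.57 in the controls and 8.35, 8.39 and 8.72 in the knockdown arrays. By number the pairs differed by 0.15, -0.02 and 0.15, and the groups overlapped. The difference of 0.09 (95% interval -0.21 to 0.40, adjusted p 0.831) was -0.023 without knockdown replicate 3. Ltbp4, a protein of elastic fibre assembly that also binds latent TGF-beta, had 10.47, 10.50 and 10.59 in the controls and 10.52, 10.62 and 10.59 in the knockdown arrays. These groups overlapped too, with a difference of 0.06 (95% interval -0.10 to 0.21, adjusted p 0.796).

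**Figure D2:**
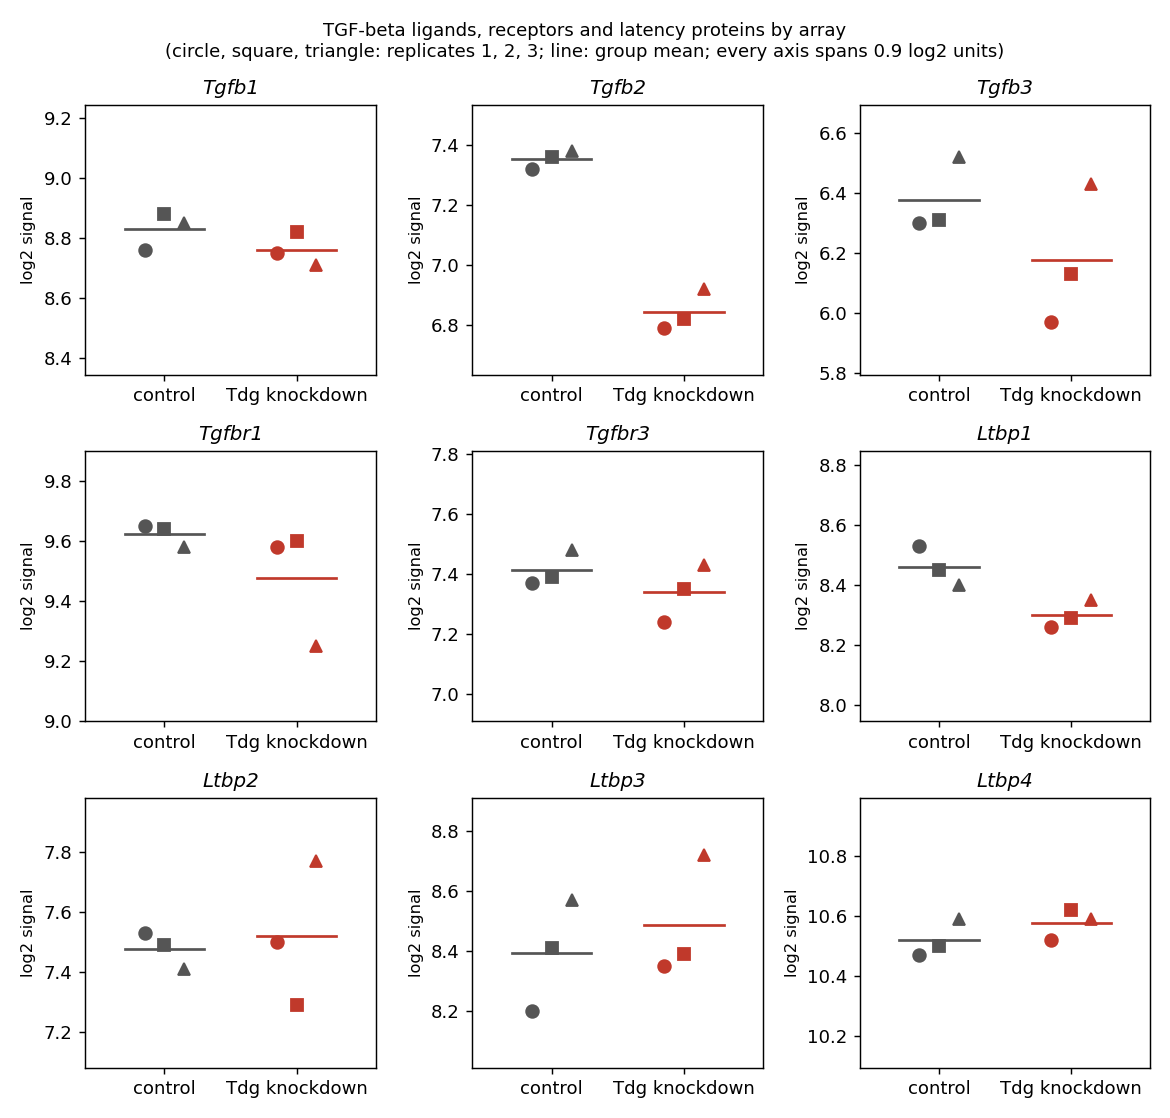
Log2 signal of the 9 genes in each array, controls in grey and Tdg knockdown in red, with circles, squares and triangles for replicates 1, 2 and 3 and a line at each group mean. Every panel spans 0.9 log2 units. The groups are far apart for Tgfb2, narrowly apart for Ltbp1 and overlap in the other 7 panels.

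Over the set, 1 of 9 genes fell, none rose and 8 did not pass. Over all named genes 0.792% were called in either direction and 0.552% as lower, and with the replicate block 3.08% were called, with 1 of the 9 genes again. The groups did not overlap for 2 of the 9 genes, or 22.2%, near the 19% of all named genes, so the count of separated genes says nothing particular about these. The median difference was -0.07 over the 9 genes and 0.02 over all named genes, with 6 of the 9 below 0 and 44.5% of all named genes below 0.

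Across the 6 arrays, the genes whose log2 signal followed Tgfb2 most closely were Ccn1 (Pearson r 0.995), a secreted matrix-associated protein gene, St14 (0.993), which encodes the membrane protease matriptase, and Kcnk1 (0.992), a potassium channel gene. They were picked from 3823 genes that ranged over at least 0.5 log2 units. For Ltbp1, the member with the next smallest p, they were H2-M2 (0.977), Kcnu1 (0.958) and Mr1 (0.946). The arrays form 2 groups, and Tgfb2, Ccn1, St14 and Kcnk1 were all lower in knockdown, so these correlations largely restate that difference. Among the 9 genes, Tgfb3 and Tgfbr3 ran most alike, at 0.976, although neither differed between the groups past the threshold. These values describe the same 6 arrays and are not tests.

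The rest of the pathway was described with 4 lists holding 61 further genes, of which 57 were analysed here. Of these 4 fell, none rose and 53 did not pass, against 0.552% of all named genes called lower. The median difference was -0.05, with 40 of 57 genes (70.2%) below 0 beside 44.5% of all named genes. The groups were apart for 19 of 57 genes (33.3%), beside 19% of all named genes. The lists were chosen with earlier results of these data known, so these shares are no independent support for a pathway change. Whether the share below 0 follows signal level was not tested. The median difference over all named genes was 0.02, and -0.01 when the dimmest genes were left out. The genes that fell were Thbs1, Ccn1, Tgfbi and Tagln.

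Of 5 other receptors and co-receptors (median difference 0.05) none passed. Tgfbr2, the receptor that binds the ligand first, had 7.49, 7.41 and 7.40 in the controls and 7.28, 7.25 and 7.37 in the knockdown arrays. The groups were apart by 0.03, and the difference was -0.13 (SE 0.07, limma adjusted p 0.473). The pseudoreceptor gene Bambi differed by 0.15 (SE 0.09, adjusted p 0.571).

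Of 20 genes for the storage and release of latent TGF-beta (median -0.10), Thbs1 fell and 19 did not pass. Thbs1 encodes thrombospondin-1, a matrix protein that can activate latent TGF-beta. It had 10.84, 10.82 and 10.79 in the controls and 9.88, 10.00 and 9.86 in the knockdown arrays, a wide gap beside the spread of either group. The difference was -0.90 (SE 0.07, limma adjusted p 0.00773), to 53.5% of the control level. Its call was lost when the first or second control array or the first knockdown array was left out (adjusted p 0.0631 to 0.0841).

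Besides Thbs1, Itgav and Mmp2 passed with the replicate block, both named after their values were seen. Itgav encodes the alpha-v integrin chain of receptors that release latent TGF-beta. It had 10.56, 10.48 and 10.45 in the controls and 10.07, 10.08 and 9.87 in the knockdown arrays, with no overlap. The difference was -0.49 (SE 0.08, limma adjusted p 0.0504, blocked 0.0238). Mmp2, a gelatinase gene, differed by -0.39 (SE 0.06, adjusted p 0.0520, blocked 0.0355). Of the 5 beta chains that pair with alpha-v, none passed. Itgb8 had the largest difference, at -0.34 with groups that did not overlap (limma adjusted p 0.117, blocked 0.0542). Itgb5 differed by -0.17, also without overlap, and Itgb1 by -0.16, while Itgb3 and Itgb6 stood at -0.06 and 0.02. Fibronectin (Fn1), to which latent complexes dock, differed by -0.05.

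Of 16 genes of SMAD transduction and its inhibitors (median -0.035) none passed. Smad3, a signal transducer phosphorylated by TGFBR1, had 9.56, 9.49 and 9.62 in the controls and 9.25, 9.25 and 9.28 in the knockdown arrays. The groups were apart, but the difference of -0.30 (SE 0.06) did not pass (limma adjusted p 0.0963, blocked 0.0502). It did pass without the dimmest genes (0.0400), with the trended and robust prior (0.0490) and with array weights (0.0194). Pmepa1, a target of the pathway that dampens it, differed by -0.28 (SE 0.07, adjusted p 0.144, blocked 0.0522), and passed with that prior (0.0468) and with array weights (0.0194). The transducers Smad2 and Smad4 differed by -0.10 and 0.01, and the inhibitory Smad7 by -0.003, with adjusted p of 0.758, 0.979 and 0.990.

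Of 16 known target genes of TGF-beta (median -0.005), 3 fell and 13 did not pass. Ccn1 had 11.03, 11.10 and 11.15 in the controls and 10.31, 10.37 and 10.40 in the knockdown arrays, with no overlap. The difference was -0.73 (SE 0.06, limma adjusted p 0.0113). Tgfbi, a matrix protein gene named for its induction by TGF-beta, had 8.90, 8.82 and 8.84 in the controls and 8.40, 8.48 and 8.49 in the knockdown arrays. It fell by 0.40 on the log2 scale (SE 0.06, adjusted p 0.0462), a call that quantile normalization (0.0632) and median centring (0.0700) did not keep.

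Tagln, an actin-binding protein gene of contractile cells, had 9.75, 9.95 and 9.61 in the controls and 8.77, 9.08 and 8.81 in the knockdown arrays. It fell by 0.88 (SE 0.12, limma adjusted p 0.0318), with a spread in each group well below that gap. As background, Ccn1, Tagln and Thbs1 also respond to signals other than TGF-beta. Ccn2, a close relative of Ccn1 and a widely used TGF-beta target, differed by -0.09 (adjusted p 0.616). Of the other targets that did not pass, the transcription factor gene Bhlhe40 had the lowest difference, -0.51 (adjusted p 0.137, blocked 0.0621), and Angptl4 the highest, 0.29 (0.249, blocked 0.0734). The calls of Ccn1, Tgfbi and Tagln held without knockdown replicate 3 (adjusted p 0.00806 to 0.0359) and were lost without any other single array (0.0607 to 0.247). With all rows tested they were lost as well (0.0525 to 0.122).

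**Figure D3:**
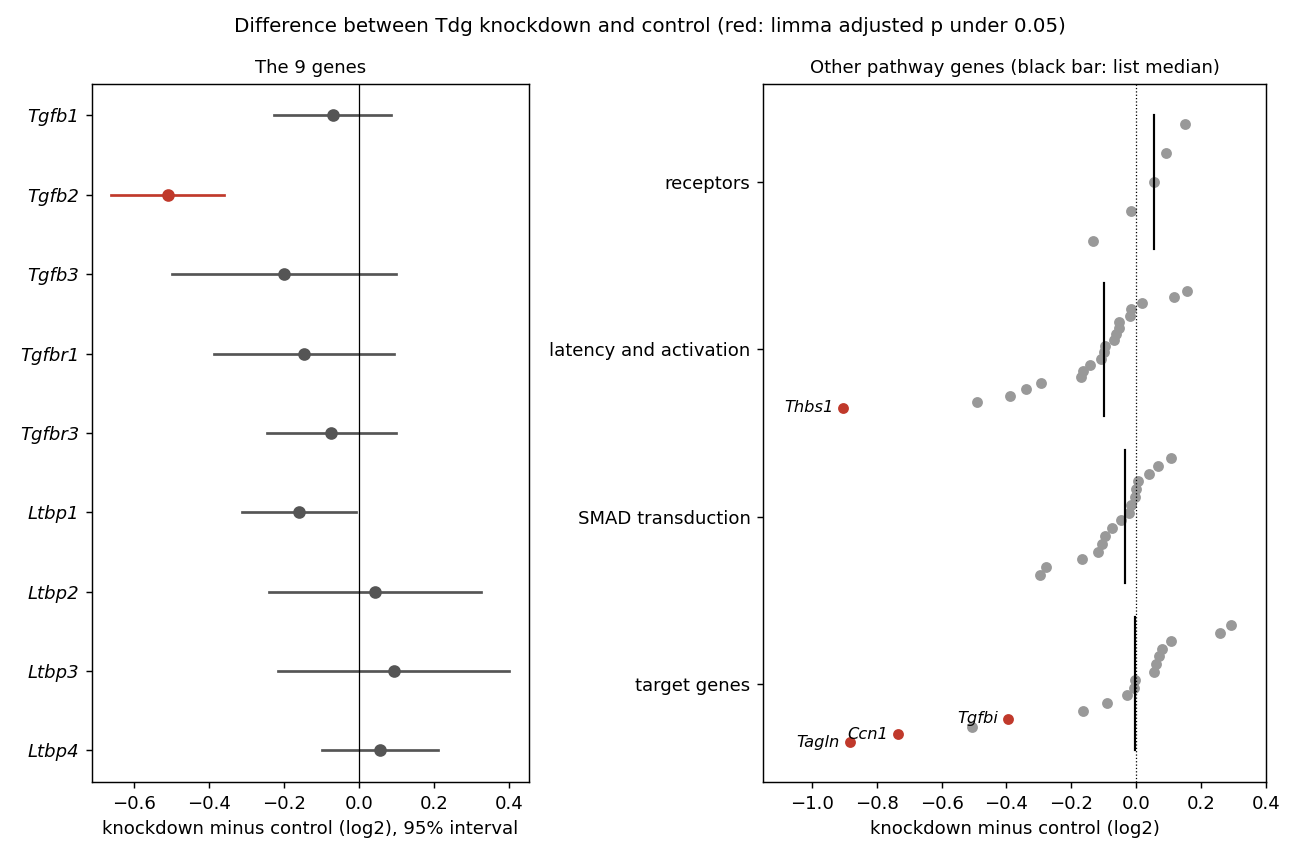
Log2 difference between knockdown and control, on the left for the 9 genes with 95% intervals and on the right for the 57 other pathway genes by list, with a black bar at each list median. Red marks a limma adjusted p under 0.05. Tgfb2 stands at -0.51 on the left, and Thbs1, Tagln, Ccn1 and Tgfbi stand below 0 on the right.

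**Figure D4:**
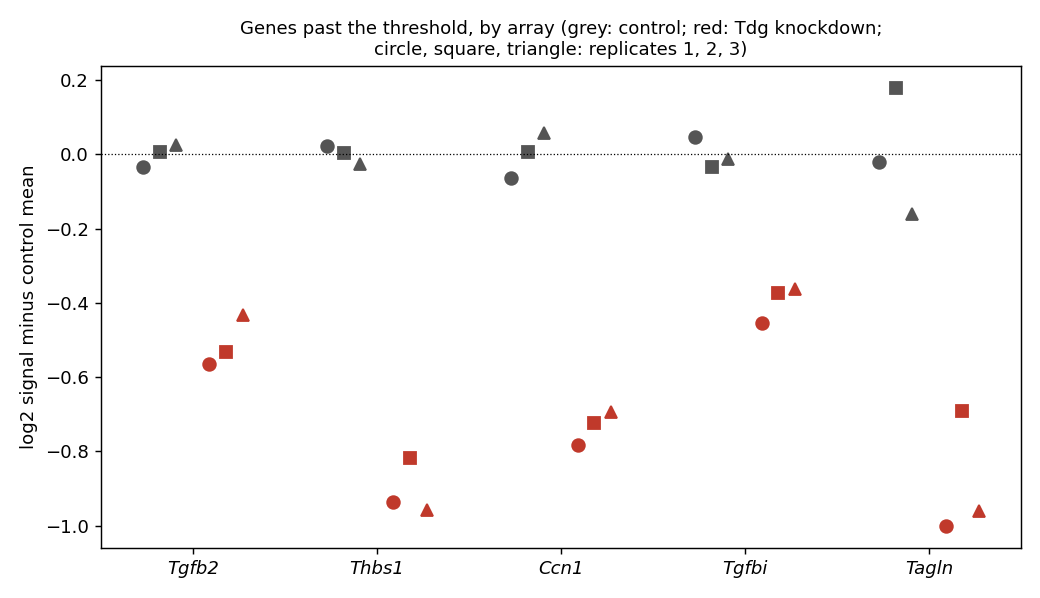
Log2 signal of the 5 called genes in each array, minus the mean of the control arrays of that gene. Grey points are controls and red points Tdg knockdown, with circles, squares and triangles for replicates 1, 2 and 3. In all 5 genes each knockdown array lies below each control array.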

How the data were processed

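The authors deposited log2 signals, 1 per probe set and array, in a table of 35557 rows. Affymetrix Expression Console is named for this step in the submitters' processing notes. How probes were summarised and arrays normalized is not stated there, and log2 was inferred from values running from 2.26 to 14.03. The platform annotation lists 1 gene for 21789 rows, and 21698 of these were matched to RefSeq (GRCm38.p6) for current names. Each of the 9 genes has 1 such row.

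The groups were compared over 19938 named genes by limma 3.58.1 under R 4.3.3 (lmFit, eBayes, two-sided, Benjamini-Hochberg adjustment over all of them, threshold 0.05), with Tdg fitted beside them. No further normalization or filter was applied. The procedure was also run on simulated data with independent noise for each gene and array, which lack the shared deviations of the real arrays. The members and lists were chosen with earlier results of these data known. The genes named are the members and, from each pathway list, every gene past the threshold or the 2 with the smallest p; others named beyond this rule were chosen after their values were seen, as were the neighbours of Tgfb2. Genes most like a member were ranked by Pearson correlation.

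Same-numbered arrays deviated together (correlations of deviations 0.615, 0.233 and 0.704 across genes), although knockdown replicate 2 correlated better with control replicate 1 (0.443). The numbers come from the sample titles, which do not say that they mark pairs, and these correlations do not settle it. The blocked values hold only if the numbers mark pairs. Alternatives were the replicate block, quantile normalization, median centring, leaving out the dimmest genes, array weights and a prior that is trended and robust. Others were averaging the rows of a gene, fitting and adjusting over all rows, and leaving out each array.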

Additional observations from a re-analysis of the deposited data

How the results depend on the processing

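Tgfb2 lay below 0 in all 14 alternatives and was called in 8 of them. The count of called members was 1 with the replicate block, quantile normalization, median centring, the filter on dim genes (where Tgfb3 was not tested), the trended and robust prior, array weights and the mean of a gene's rows. It was 0 with all rows tested, and 0 to 1 when each array was left out. The replicate block changed no call among the 9 genes. The 8 uncalled members passed in no alternative, and Tgfb1, Tgfb3, Tgfbr1, Tgfbr3, Ltbp1 and Ltbp4 kept their sign in each. Ltbp2 turned to -0.025 with array weights, and ran from -0.082 (without knockdown replicate 3) to 0.158 when each array was left out. Ltbp3 turned to -0.018 with array weights, and ran from -0.023 (without knockdown replicate 3) to 0.182, with -0.0033 without control replicate 1. The cause was not tested.

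The 4 called genes among the other pathway genes became 6 with the block, 7 with the filter on dim genes, 8 with the trended and robust prior, 11 with array weights, 3 with median centring and 1 with all rows tested, and 0 to 5 when each array was left out. limma called 0 named genes when the first control, the second control or the first knockdown array was left out, with 1682, 1510 and 1958 at an unadjusted p under 0.05. Over all named genes the 158 calls became 614 with the block, 446 with the trended prior, 1633 with array weights and 12 with all rows tested, and the dim filter gave 444 among the 13289 genes it left. The array weights were estimated gene by gene because the default estimator did not converge. Tdg was called in all 14 alternatives.

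No background signal was used here, so how far dim genes such as Tgfb3 and the called Tgfb2 lie above it is not known. By mean signal Tgfb3 lay at percentile 24.1 and Tgfb2 at 37.0 of all named genes. With 3 arrays a group the 95% interval of Tgfb3 still spans -0.50 to 0.10.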

Other observations

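The protein-coding genes on either side of Tgfb2 in the RefSeq order did not pass. Lyplal1 had 9.89, 9.82 and 9.75 in the controls and 9.82, 9.73 and 9.65 in the knockdown arrays, a difference of -0.09 (limma adjusted p 0.717). Rrp15, a ribosome biogenesis gene, had 10.06, 9.92 and 9.96 in the controls and 10.11, 10.18 and 10.13 in the knockdown arrays, a difference of 0.16 (adjusted p 0.378). Its groups were apart, in the opposite direction to Tgfb2.

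The promoter windows of the called pathway genes with a RefSeq entry were searched for the same motifs. Ccn1 had 15 CpGs and 1 TATAAA match, and Tgfbi had 15 CpGs and 2 CAGAC matches. Neither held a TGANTCA match.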
